A study of Homo sapiens with 6 samples.

Results

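Pseudogenes, the disabled copies of genes, gave 125 of the 13208 transcript isoforms that were compared between extracellular vesicles (EVs) and whole cells (WC) of the K562 line. The members were all isoforms whose assigned gene had an Ensembl identifier and a pseudogene biotype, and they lay on 109 pseudogenes. K562 is an established human line of chronic myelogenous leukaemia with erythroid character, here untreated and of wild-type genotype. The EV group held 3 libraries of RNA from vesicles purified by size exclusion chromatography from medium that the cells had conditioned, and the WC group held 3 libraries of RNA from the cells of the same cultures. All of the cultures grew in medium whose serum had been depleted of vesicles. Polyadenylated RNA was copied to cDNA, amplified by PCR and read as long molecules on Nanopore flow cells, with the EV and the WC library of a replicate on the same flow cell. The gene counts of the libraries summed to between 560157 and 881338 in EV and to between 2480560 and 3178211 in WC, so EV values rest on fewer reads. Counts scaled to library size (CPM) of 12 erythroid K562 markers summed to between 668 and 785 in EV and between 458 and 527 in WC, with reads for 12 of 12. The 11 markers of other cell types summed to between 26.1 and 57.1 CPM in EV and between 73.2 and 107 CPM in WC, and 4 of them, MS4A1, ALB, COL1A2 and KRT5, were at 0. Since these are bulk libraries, fewer cells or vesicles carrying an RNA and less RNA in each cannot be told apart.

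A processed pseudogene arises when an mRNA is copied back into DNA and inserted elsewhere in the genome, so it has no introns and often ends in a genomic stretch of A left by the poly(A) tail. An unprocessed pseudogene arises by duplication of a stretch of the genome and keeps the exon and intron layout, and a unitary pseudogene is a gene that lost its function without a copy. Ribosomal protein genes have given rise to many processed copies, and fragments of the mitochondrial genome sit in the nuclear genome as unprocessed ones.

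Processed members carried close to the same coding sequence as their parent genes. The sequences below show this for 4 of them and for a mitochondrial copy, from the GRCh38 genome and 5′ to 3′, as the stretch of 60 bases within the parent's coding sequence that held the most differences, with the differing bases in capitals. RPL21P16 (chr10:120355124-120355183, minus strand) and RPS28P7 (chr11:82689559-82689618, plus strand) did not differ from their parents RPL21 and RPS28 at any coding base, so the first 60 coding bases of the pseudogene stand for both. RPL21P75 (chr7:20003131-20003190, plus strand) held 1 difference, RPL10P16 (chr19:12643281-12643340, minus strand) held 3 in its window and MTND2P28 (chr1:630069-630128, plus strand) held 4. The parental stretches lay in RPL21 on chromosome 13, RPL10 on chromosome X and MT-ND2 on the mitochondrial genome.
RPL21P16 and RPL21: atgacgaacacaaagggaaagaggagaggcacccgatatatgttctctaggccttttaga
RPS28P7 and RPS28: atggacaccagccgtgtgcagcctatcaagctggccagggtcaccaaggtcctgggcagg
RPL21P75: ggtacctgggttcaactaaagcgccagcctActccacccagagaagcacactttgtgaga
RPL21: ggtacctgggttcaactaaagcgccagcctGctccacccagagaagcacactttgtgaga
RPL10P16: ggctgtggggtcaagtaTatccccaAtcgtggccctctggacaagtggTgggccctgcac
RPL10: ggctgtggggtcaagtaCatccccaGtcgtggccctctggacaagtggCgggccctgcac
MTND2P28: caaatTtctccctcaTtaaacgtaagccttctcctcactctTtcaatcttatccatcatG
MT-ND2: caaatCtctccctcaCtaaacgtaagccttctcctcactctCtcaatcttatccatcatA

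Over whole coding sequences, 55 single-exon members could be aligned to a parent, and 52 of them covered at least 80% of its coding bases. Their identity to the parent had a median of 99.2% and ran between 86.5% for HMGB1P51, a copy of the DNA-bending protein gene HMGB1, and 100%. Of these, 5 had no differing coding base: RPL21P16, RPS28P7, RPL41P2 on chromosome 15, ENSG00000196656, a copy of RPS26, and ENSG00000244398, a copy of RPL36A. RPL10P16 and RPL10P9 each differed from RPL10 at 7 of 642 coding bases. EEF1A1P5, a copy of the elongation factor gene EEF1A1, differed at 4 of 1386.

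Many processed members lay beside a genomic stretch of A at the annotated pseudogene's 3′ side. The next sequences show, read in the sense of the annotated pseudogene, the last 10 bases covered by the model in lower case and the 20 genomic bases after them in capitals, for RPS28P7 (chr11:82689895-82689924), RPL13AP5 (chr10:96750914-96750943), RPL21P16 (chr10:120354624-120354653) and RPS27AP16 (chr16:61055379-61055408).
RPS28P7: tgtgtttcaaAAAAAAAAAAAAAAAAAAAA
RPL13AP5: gttaattcctAAAAAAAAAAAAAAAAAAAA
RPL21P16: aaaaaaaaaaGAATGAACTTTCAACTCTTT
RPS27AP16: aaaaaaaaaaGAAGAAGAAGCTATCAACCT

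RPL13AP5 was modelled on the strand of the pseudogene, whereas RPS28P7, RPL21P16 and RPS27AP16 were modelled on the opposite strand, so the end shown for these is the start of the deposited model. The stretch of A began right after the model's edge in RPL13AP5, just inside it in RPS28P7 and inside it in RPL21P16 and RPS27AP16. Over the 40 bases around this edge, in the sense of the gene, a run of at least 10 A (AAAAAAAAAA) was present in 31 of 47 processed members (66%), and at the model's own 3′ end in 14 of 47 (29.8%). In the sense of the gene it was also present in 5 of 12 transcribed processed ones. It was present in 6 of 47 transcribed unprocessed members, in none of 9 unprocessed and none of 7 transcribed unitary ones. Among isoforms of coding genes the share was 2.76% of 8666, and among isoforms of lncRNA genes 2.15% of 372. Counted instead as A-rich, with at least 12 A in the 20 genomic bases after the model's own 3′ end, were 14 of 122 members (11.5%) and 5 of 47 processed ones (10.6%), beside 2.86% of coding isoforms. In the sense of the gene 13 of 47 processed members were A-rich.

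Spliced members instead had introns with the usual ends. The first introns of STAG3L3, a duplicated copy of the cohesin subunit gene STAG3 (1962 bases on the minus strand of chromosome 7), and of HERC2P2, a copy of the ubiquitin ligase gene HERC2 (21203 bases on the plus strand of chromosome 15), are shown at both ends, with 15 bases either side of the junction and the first and last intron dinucleotides in capitals. The junctions lay within chr7:73005678-73005707 and chr7:73003716-73003745 in STAG3L3 and within chr15:22495658-22495687 and chr15:22516861-22516890 in HERC2P2.
STAG3L3, start of the intron: atgccgatgtaccagGTaaagccctatcac
STAG3L3, end of the intron: aattcatacaaatAGacaagaagacaagaa
HERC2P2, start of the intron: aaaacagatatacagGTggggtttgacatg
HERC2P2, end of the intron: gtttatcattgccAGcttgcattcacaaga

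Of the 264 introns of members on the primary chromosomes, 261 (98.9%) began with GT and ended with AG on the model's strand, beside 99% of 66828 introns in isoforms of coding genes and 99% of 958 in isoforms of lncRNA genes. The models were built after spliced alignment and a correction step, so these shares may follow from the processing, which was not tested.

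Counted over all levels, the members held unspliced and spliced isoforms in nearly equal number, but unspliced ones prevailed at higher levels. A single exon was found in 63 of 125 members (50.4%, exact binomial 95% interval 41.3 to 59.5%, which covers counting error only), beside 0.691% of 8829 isoforms of coding genes, 12.5% of 375 of lncRNA genes and 98.7% of 3863 at loci with no annotated gene. That interval takes the isoforms as independent, although some share a pseudogene or a parent, so it is a description. Among the 70 members with a mean level of at least 10, 54 had 1 exon (77.1%). All 48 isoforms of processed pseudogenes had 1 exon, as had 6 of 12 on transcribed processed, 1 of 48 on transcribed unprocessed, 6 of 10 on unprocessed and 2 of 7 on transcribed unitary pseudogenes. The annotation names a pseudogene transcribed where other evidence of its transcription was on record.

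**Figure D1:**
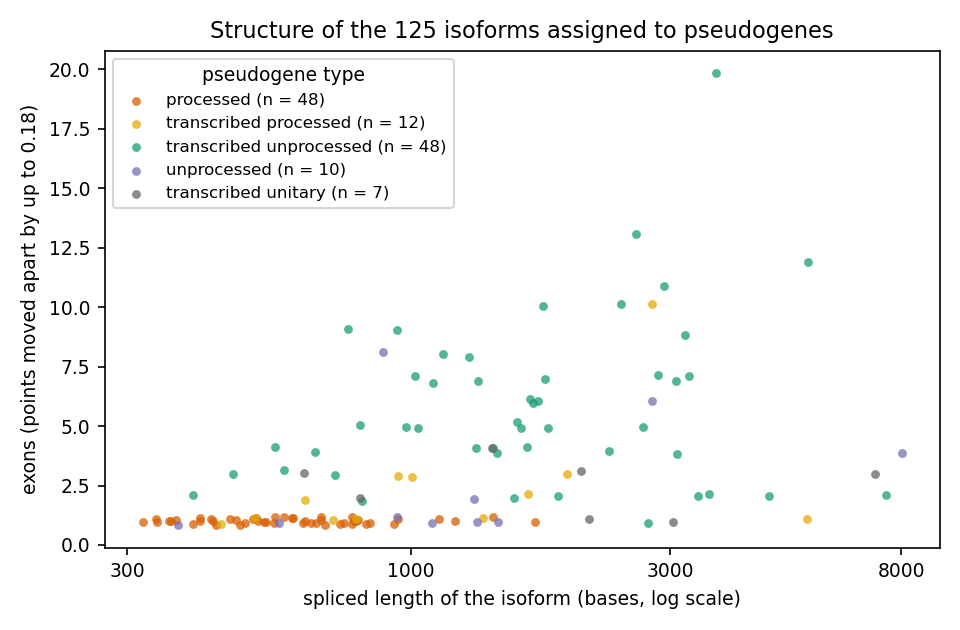
Spliced length (bases, log scale) against exon number for each of the 125 isoforms, coloured by the type of pseudogene. Processed members sit in the row of 1 exon between 320 and 1690 bases, and the isoforms with most exons belong to transcribed unprocessed pseudogenes.

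Spliced length had a median of 941 bases over the members and ran between 320 and 8011, beside medians of 1575 bases in coding and 917 bases in lncRNA isoforms. Single-exon members had a median of 636 bases and multi-exon ones of 1610.5 bases with a median of 4.5 exons. HERC2P2 had the most exons, 20 in 3645 bases, and was followed by CROCCP2, a copy of the centrosomal rootlet gene CROCC, with 13 and PLEKHM1P1, a copy of PLEKHM1, with 12. The longest isoforms were those of FRG1DP (8011 bases in 4 exons), BMS1P1 (7480 bases in 2 exons) and CUTALP (7157 bases). The shortest were processed copies: ENSG00000283390, nearest to PET100, with 320 bases, and ENSG00000236439 and ENSG00000227081, both copies of RPS27, with 338 and 340 bases.

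None of the members was predicted to be translated. All 125 were classed as having no start codon, a class that held 8.09% of coding and 97.3% of lncRNA isoforms. The predictor takes its start codons from annotated coding genes, so this class follows the annotation. A transcript already named in the annotation was found for 31 members, each with more than 1 exon, and the other 94 were models built from the reads.

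The strand of the model opposed that of the annotated pseudogene in 23 of 47 processed members, and in 29 of 62 single-exon members, against 0 of 60 multi-exon ones. In isoforms of coding genes it did so in 30 of 8666. A single-exon model has no splice site to set its strand. Of the 23 opposed models, 17 ended, in the sense of the pseudogene, at a run of at least 10 A and 0 did so in the sense of the model. RPS28P7, RPL21P16 and EEF1B2P3, a copy of the elongation factor subunit gene EEF1B2, were modelled on the opposite strand, and ENSG00000244398 on its own strand.

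Processed members reached past the annotated 3′ end of the pseudogene by a median of 68 bases (quartiles 49 and 96) and past its 5′ end by a median of 0. In 46 of 47 the model covered the annotated pseudogene in full. RPS28P7 (chr11:82689547-82689904) ran 136 bases past that end. Transcribed unprocessed members matched the later annotation used here, GENCODE v44, less closely: 8 of 47 shared no exonic base with their own pseudogene in it, among them SPACA7BP and ENSG00000237094. Over the 122 members on primary chromosomes, 49 overlapped a lncRNA gene and 8 a coding gene on the same strand. Some of these lncRNA genes, such as those at SBDSP1, CROCCP2 and UBBP4, carried the pseudogene's own name and covered the whole isoform. Where the overlapping gene was a different one, its reads and those of the pseudogene cannot be told apart.

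Matched against all coding transcripts, 44 of 47 processed members were at least 95% identical to the best transcript over at least 90% of their length, and 4 of 47 transcribed unprocessed ones were. Median identity was 99.1% in processed and 93.1% in transcribed unprocessed members, over a median of 97.7% and 48.1% of the isoform. The deposited models carry a score between 1 and 60, the range of the aligner's mapping qualities, although the sources used here do not say what it holds. It was 60 in 39.2% of members, beside 91.8% of coding and 88.8% of lncRNA isoforms. Its median was 11 in processed, 3.5 in unprocessed and 59 in transcribed unprocessed members, and 18 of 48 processed members stood at the lowest score.

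The isoform level is the authors' mean of the normalized counts over the 6 libraries, with no value for each library, so it cannot be split into EV and WC and has no error. It had a median of 11.7 over the members, 9.84 over coding and 10.9 over lncRNA isoforms, and 70 of 125 members lay above the coding median. Processed members had a median of 54.6 and transcribed unprocessed ones of 5.05. The 10 highest members held 69.2% of the members' summed level. RPS28P7, a copy of a small-subunit ribosomal protein gene, led with 1918, followed by RPL21P16, a large-subunit copy, with 1499, ENSG00000244398 with 1321 and EEF1B2P3 with 1087. Also among the 10 were nuclear copies of mitochondrial genes on chromosome 1, MTND2P28 with 883, MTATP6P1 with 795, MTCO2P12 with 721 and MTND1P23 with 524, beside RPL7P9 with 549 and RPL23AP42 with 533.

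The gene-level counts of the same pseudogenes, which were made in a separate step, followed the isoform level only in part. Over 103 pseudogenes with reads, Spearman's rho between summed isoform level and summed reads was 0.69, a description across genes that share libraries, and it was 0.23 over the 55 with single-exon isoforms only and 0.45 over the 48 with a multi-exon isoform. Pseudogenes with only single-exon isoforms had a median of 19158 reads over the 6 libraries, and those with a multi-exon isoform 262. RPL10P9 had 35578 gene-level reads and an isoform level of 14.4, while RPS28P7 had a similar 34474 reads. RPL23AP42 had an isoform level of 533 and 0 gene-level reads in each library, and its model overlapped the lncRNA genes ENSG00000269888 and LINC02067 on the model's strand.

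**Figure D2:**
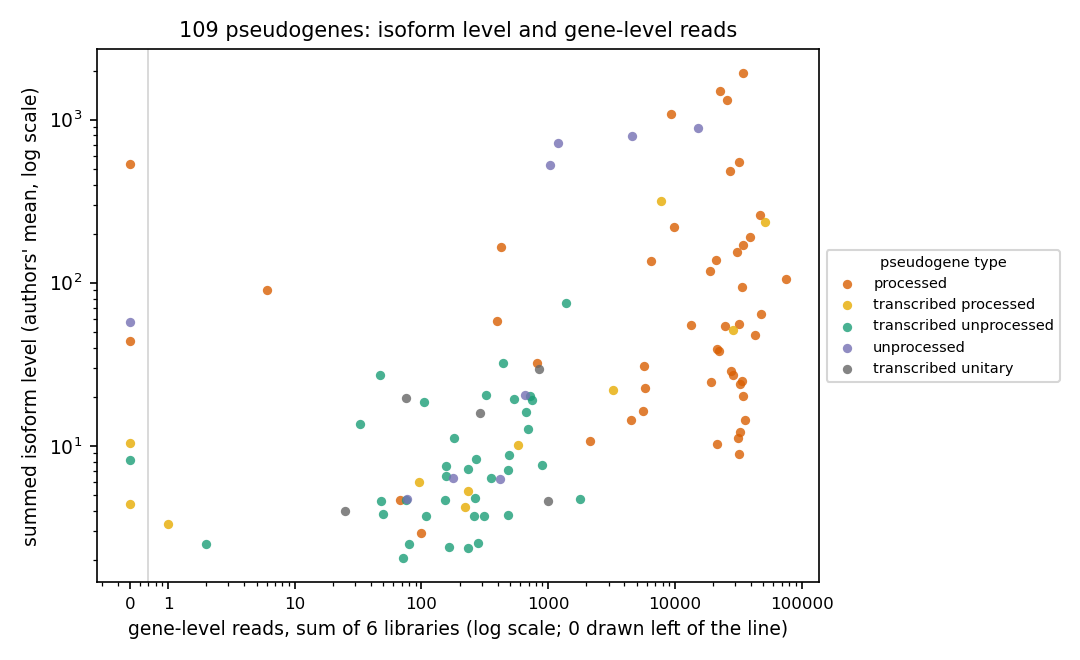
Summed isoform level (the authors' mean normalized count, log scale) against gene-level reads summed over the 6 libraries (log scale) for 109 pseudogenes, coloured by type. The 6 pseudogenes with 0 reads stand left of the grey line, with RPL23AP42 the highest of them, and processed pseudogenes hold most of the points with the highest read counts.

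The pseudogenes that hold a member isoform took 13.3, 13 and 13.2% of all gene counts in EV and 10.8, 10.7 and 10.6% in WC. The groups did not overlap and the mean was 2.49 percentage points higher in EV (exact permutation test, two-sided, p = 0.1, the smallest that 3 against 3 allows). Of the counts on pseudogenes alone they took 27.2 ± 0.178% in EV and 26.9 ± 0.31% in WC (SD, n = 3 each), where the groups overlapped (exact permutation test, p = 0.2). With only the pseudogenes that hold a multi-exon isoform the direction of the first share turned, to 0.42, 0.422 and 0.414% in EV and 0.43, 0.465 and 0.469% in WC (exact permutation p = 0.1).

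At gene level, processed pseudogenes were mostly higher in EV and unprocessed ones mostly lower. Of the 109 pseudogenes, 95 passed the filter on low counts, and among these 47 rose in EV relative to WC and 28 fell at an adjusted p under 0.05 (edgeR quasi-likelihood test, Benjamini-Hochberg over the 8716 genes tested, EV over WC). These p-values measure the spread between the 3 libraries of a group, which the study describes as biological replicates. Among all genes tested, 22.8% rose and 21.4% fell. Under the thresholds for enrichment, a log2 fold change of at least 2 in size and an adjusted p of at most 0.01, 4 were EV-enriched beside 4.53% of all genes, and 14 were WC-enriched beside 5.93% of all genes. A pseudogene with few EV reads passed the filter only where its WC counts were high enough. Such falls were therefore selected through WC. The median log2 fold change was 0.44 over these 95 and -0.13 over all genes. Of 1332 other pseudogenes tested, 851 rose and 135 fell.

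By type, 39 of 44 tested processed pseudogenes rose and 2 fell (median log2 fold change 1.04), and 5 of 8 transcribed processed ones rose and 2 fell (median 1.01). Of 31 transcribed unprocessed ones 3 rose and 16 fell (median -1.39), and of 8 unprocessed ones none rose and 7 fell (median -2.01). Copies of mitochondrial genes made up 4 of the 8 unprocessed ones, and all 4 fell. Of 4 transcribed unitary ones 1 fell and none rose. Pseudogenes without a member isoform showed 806 risen and 50 fallen of 1099 tested among processed and 4 risen and 37 fallen of 96 among transcribed unprocessed ones.

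Directions depend on how libraries are put on a common scale. These values use TMM factors, which assume that most genes do not differ. Scaled by total counts, the median of all genes moved to -0.78, and 33 of the members' pseudogenes rose and 43 fell, with 31 of the processed and transcribed processed ones risen and 7 fallen, while 35 of the unprocessed and transcribed unprocessed ones fell.

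**Figure D3:**
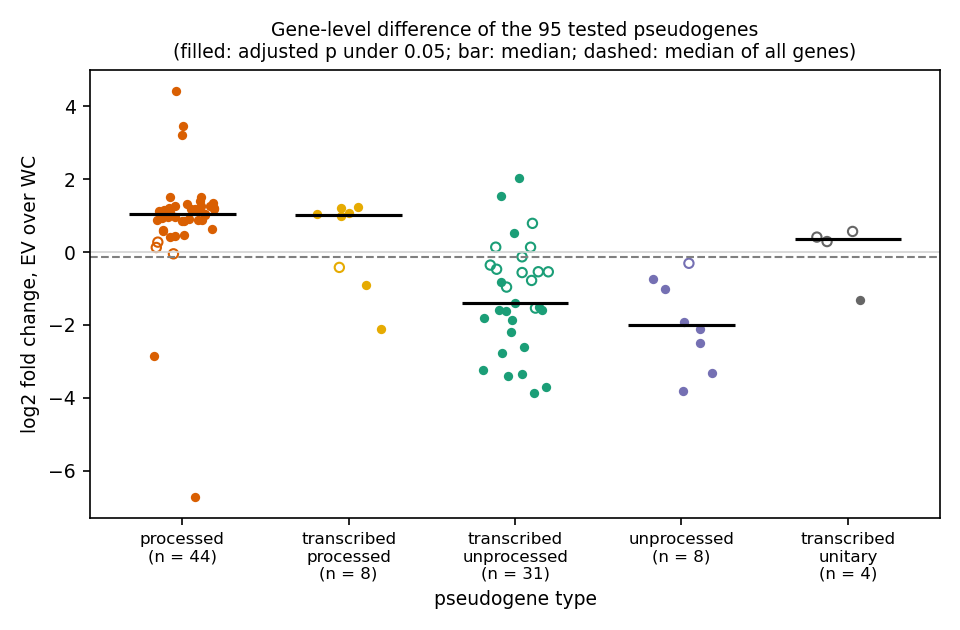
Log2 fold change of gene-level counts, EV over WC, for the 95 tested pseudogenes by type. Filled points passed an adjusted p under 0.05, black bars are medians and the dashed line is the median of all genes. Processed pseudogenes cluster around 1.04 and transcribed unprocessed ones have a median of -1.39. The lowest point, ENSG00000282416, had no EV read, so its height depends on the fit, and the median of its type is the same with it at its bound.

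Copies of ribosomal protein genes, which encode the structural proteins of the ribosome, made up most of the rise. Of 31 by symbol, 28 passed the filter, 27 rose and none fell, around a median log2 difference of 1.06. Among 369 tested copies without a member isoform 346 rose and 1 fell. Scaled by total counts, 19 rose and 1 fell (median 0.41). RPS28P7 had 5627, 5796 and 5563 CPM in EV and 2789, 2415 and 2284 CPM in WC. Every EV library lay above every WC library (log2 difference 1.18, SE 0.12, adjusted p 1.3e-08). RPL21P16 had 3852, 3913 and 4287 CPM in EV and 1735, 1529 and 1499.6 CPM in WC, again without overlap (log2 difference 1.34, SE 0.12, adjusted p 2.6e-09). ENSG00000244398, the RPL36A copy, had 4137, 4635 and 5463 CPM in EV and 1837, 1799 and 1721 CPM in WC (log2 difference 1.41, SE 0.13, adjusted p 1.9e-09).

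Copies of RPS27 stood among the highest in EV. ENSG00000227081, the highest of all members there, had 7881, 9467 and 9921 CPM in EV and 3309, 3294 and 2991 CPM in WC (log2 difference 1.51, SE 0.12, adjusted p 2.1e-10), and the groups did not overlap. ENSG00000236439 was close to it, with means of 8317 ± 994 CPM in EV and 2933 ± 145 CPM in WC (SD, n = 3 each). The other ribosomal protein copies among the 10 highest by mean CPM, ENSG00000227615 (RPS12), RPS27AP16, ENSG00000185641 (RPS25), RPL10P9, RPL13AP5 and RPS15AP1, rose by log2 fold changes between 0.97 and 1.31. RPL7P9, among the 10 highest isoforms, rose by 0.87.

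The largest rises were in 3 processed pseudogenes with far fewer reads. RPL21P75 had 230.5, 185 and 187 CPM in EV and 8.93, 10.5 and 8.43 CPM in WC. All 3 EV libraries lay far above the 3 WC libraries (log2 difference 4.43, SE 0.21, adjusted p 1.4e-14, a fold of 21.6). RPL10P16 had 749, 904 and 899 CPM in EV and 73.5, 78.6 and 78.8 CPM in WC (log2 difference 3.46, SE 0.16, adjusted p 9.4e-15). ENSG00000283041, a copy of the elongation factor subunit gene EEF1G, had 292, 308 and 301 CPM in EV and 26.8, 31.7 and 37.8 CPM in WC (log2 difference 3.22, SE 0.18, adjusted p 3.9e-13), again without overlap. The 3 held 426, 2124 and 810 reads over the 6 libraries.

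Next among the rises were spliced members. SPACA7BP had 20.6, 30.1 and 29.7 CPM in EV and 5.84, 6.64 and 6.11 CPM in WC (log2 difference 2.04, SE 0.33, adjusted p 1.6e-05), on 105 reads, and its isoform shared no exonic base with the v44 model of the gene. UBBP4, a copy of the polyubiquitin gene UBB, had 118, 85.6 and 107 CPM in EV and 43.3, 34.5 and 31.4 CPM in WC (log2 difference 1.53, SE 0.20, adjusted p 1.0e-06). In both the EV libraries lay above the WC libraries.

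**Figure D4:**
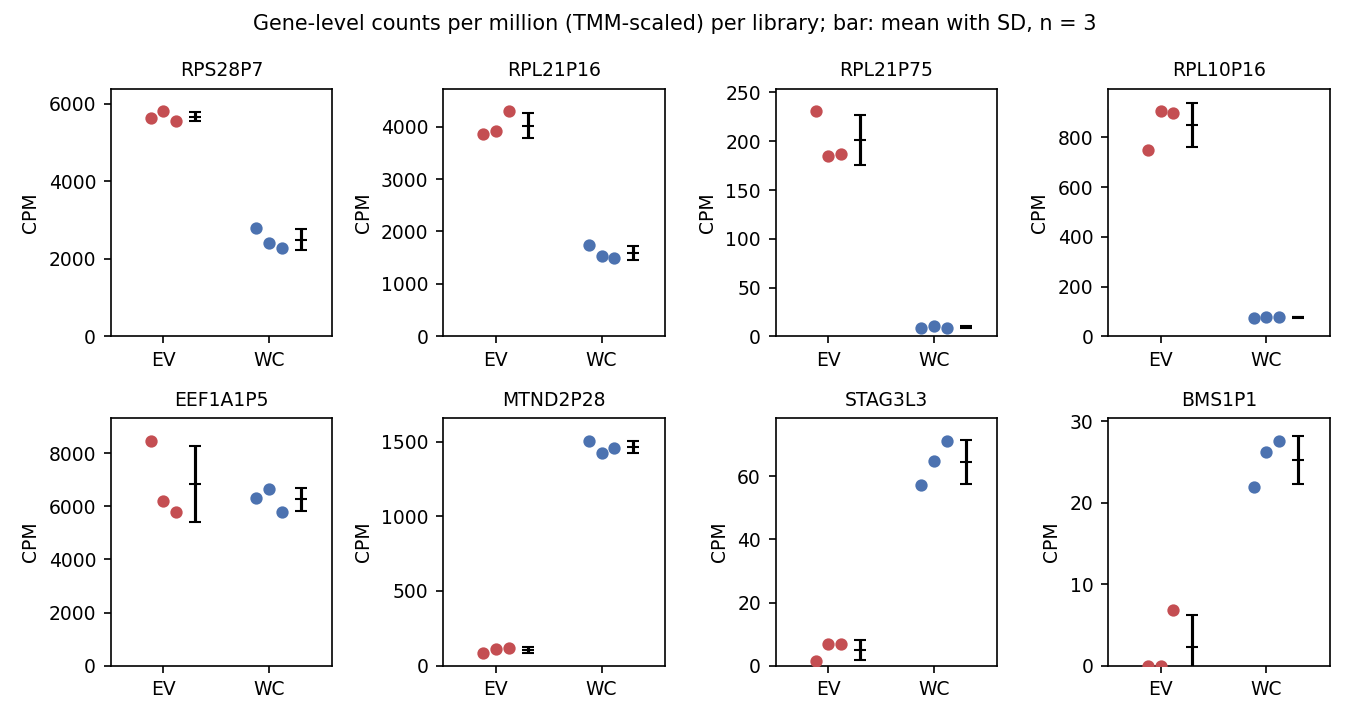
Gene-level CPM, TMM-scaled, in each library for 8 pseudogenes, with EV in red and WC in blue and the mean with its SD (n = 3) beside the points. RPS28P7, RPL21P16, RPL21P75 and RPL10P16 are higher in every EV library, EEF1A1P5 overlaps, and MTND2P28, STAG3L3 and BMS1P1 are lower in every EV library.

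Few tested processed pseudogenes were not called as risen. EEF1A1P5, the highest member pseudogene by mean CPM, had 8469, 6217 and 5803 CPM in EV and 6314, 6669 and 5799 CPM in WC. The groups overlapped and EV replicate 1 stood above the other EV libraries (log2 difference 0.13, SE 0.13, adjusted p 0.45). Without EV replicate 1 the log2 fold change was -0.09. Under total-count scaling EEF1A1P5 passed the threshold as lower in EV (log2 difference -0.52, adjusted p 0.0073). PPIAP22, a copy of the cyclophilin A gene PPIA, differed by 0.27 on the log2 scale with an SE of 0.13 and an adjusted p of 0.093, and COX6A1P2, a copy of a cytochrome c oxidase subunit gene, by -0.05 with an SE of 0.15 (adjusted p = 0.81). Without WC replicate 1 PPIAP22 passed the threshold, with an adjusted p of 0.038, and under total-count scaling it passed in the other direction. EEF1B2P3 and NDUFA4P1, a copy of a respiratory chain subunit gene, rose by 0.57 and 0.61, but both lost the call with no filter on low counts and turned direction under total-count scaling. HMGB1P5 rose by 1.21, while HMGB1P51 fell by 2.85 on the log2 scale, on 2 EV reads (ratio 0.132, counting interval 0.0158 to 0.491).

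Counts on nuclear copies of mitochondrial genes fell in EV. MTND2P28, a copy of a complex I subunit gene, had 85, 111 and 119 CPM in EV and 1506, 1426 and 1455 CPM in WC. Every EV library lay below every WC library (log2 difference -3.82, SE 0.17, adjusted p 4.0e-15). MTATP6P1, a copy of an ATP synthase subunit gene, had 27.4, 41.6 and 70.8 CPM in EV and 473, 381 and 477 CPM in WC (log2 difference -3.32, SE 0.24, adjusted p 4.4e-11). MTCO2P12 and MTND1P23 fell by 1.92 and 2.10 on the log2 scale. All 4 copies that hold a member isoform fell, under every scaling tried, as did 6 of 7 tested copies that hold none. The mitochondrial parents of the 4 fell as well, with log2 fold changes between -3.50 in MT-CO2 and -3.07 in MT-ND1. The 4 models stood at the lowest score of 1 and were 98.2 to 99.1% identical to their parents over the aligned coding bases. How many reads of these copies come from the mitochondrial genes therefore cannot be told from the counts, and their origin was not tested.

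Other falls were found among spliced copies. Of 42 tested pseudogenes with a multi-exon isoform, 20 fell, 5 rose and 17 were not called. STAG3L3, the pseudogene with most member isoforms (5), had 1.37, 6.94 and 6.85 CPM in EV and 57.4, 64.8 and 71.3 CPM in WC, on 7 EV and 666 WC reads (log2 difference -3.85, SE 0.39, adjusted p 1.0e-08). The groups did not overlap. STAG3L2 had 2.74, 2.31 and 2.28 CPM in EV and 25.4, 25.8 and 29.1 CPM in WC (log2 difference -3.39, SE 0.47, adjusted p 1.9e-06). BMS1P1, a copy of the ribosome assembly gene BMS1, had 3 reads in EV, all in replicate 3, and 262 in WC, a CPM ratio of 0.0735 with an exact counting interval of 0.0151 to 0.217 (log2 difference -3.71, SE 0.60, adjusted p 1.5e-05). TPTEP2 had 1 EV and 71 WC reads (ratio 0.0904, interval 0.00226 to 0.52), and lost the call without EV replicate 1. STAG3L3, STAG3L2, BMS1P1 and TPTEP2 passed the filter only through their WC reads, as did ENSG00000282416 below. The same holds for other pseudogenes with few EV reads, such as HMGB1P51 and PLEKHM1P1. Their falls were thus selected through WC. Outside these copies, the processed pseudogene ENSG00000282416 had no read in EV and 68 in WC, at least 3.53-fold lower in EV when 3 reads are allowed over the EV group.

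Among the remaining spliced members with most exons or most isoforms, ENSG00000237094 had 15.1, 4.63 and 6.85 CPM in EV and 58.1, 72.8 and 71.8 CPM in WC (log2 difference -2.77, SE 0.32, adjusted p 1.3e-07) and HERC2P2 15.1, 11.6 and 16 CPM in EV and 38.5, 44.7 and 50 CPM in WC (log2 difference -1.63, SE 0.29, adjusted p 6.4e-05), both without overlap. PLEKHM1P1 had 3 EV reads (ratio 0.267, interval 0.0539 to 0.813), with an adjusted p of 0.044 that lost the call without any of the EV libraries and, with the replicate as a block, at 0.058. FRG1DP fell by 0.74 on the log2 scale (adjusted p = 0.036) but its groups overlapped, the block gave 0.053, and the call was lost without EV replicate 1, EV replicate 2 or WC replicate 2. CUTALP, a unitary pseudogene, fell by 1.31 on the log2 scale. CROCCP2 and FRG1CP did not pass, with log2 fold changes of -0.78 ± 0.37 and -0.54 ± 0.26 (SE). WASH3P, with 10 exons, lay on a patch contig and had no gene-level read. ENSG00000237550, a copy of RPL9 with 1 spliced and 1 single-exon isoform, rose by 0.98. The unspliced ENSG00000244313, a copy of RPS10 whose 2 isoforms both had 1 exon, rose by 0.89.

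The 14 pseudogenes that did not pass the filter had between 0 and 50 reads. The 6 with none were RPL23AP42, CPSF1P1, ANKRD36BP1 and the 3 on contigs outside the primary chromosomes. HBBP1, the beta-globin pseudogene of this erythroid line, had 33 reads, with 6.86, 4.63 and 4.57 CPM in EV and 1.72, 2.55 and 2.62 CPM in WC, and its spliced isoform also overlapped HBD on the same strand. It is named here after its values were seen.

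Reads on some processed pseudogenes came close to those on their parent genes. A parent in the count table was named for 81 pseudogenes, 60 by symbol and 21 by sequence. RPL7P9 had 3065, 1990 and 2015 reads in EV and 6861, 9848 and 8407 in WC, where RPL7 had 2995, 1928 and 1970 in EV and 6814, 9759 and 8329 in WC. Thus RPL7P9 stood between 1.01 and 1.03 times its parent in every library. RPS28P7 stood between 1.15 and 1.2 times RPS28. In 18 pairs the counts agreed within 1.2-fold in all 6 libraries. The pseudogene exceeded the parent in all of them in 27 pairs, and stayed below it wherever the parent had reads in 28. Both sets overlap with the 18. The 27 leave out pairs whose parent had no read in some library, such as ENSG00000244398 with RPL36A.

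Some copies of the same parent carried near-equal counts. RPL7P1 and RPL7P9 differed by at most 1.005-fold in any library, ENSG00000237550 and RPL9P7 by at most 1.004-fold and RPS2P46 and RPS2P5 by at most 1.04-fold. RPL21P16 and RPL21P75, in contrast, differed by at least 16.7-fold. How the counting step treated a read that fits several copies is not given in the sources used here, and whether the same reads were counted at several copies was not tested. The level of a near-identical processed pseudogene or mitochondrial copy may therefore include reads of its parent and sister copies. Counts that differ between copies, as for RPL21P16 and RPL21P75, show only that these copies did not share all of their reads.

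Fold changes of pseudogene and parent were often alike. Of 64 pairs in which both genes were tested, 37 rose together, 7 fell together and 4 were called in opposite directions. These 4 were HMGB1P51, FRG1BP, SUZ12P1 and GTF2IP20, which fell while HMGB1, FRG1, SUZ12 and GTF2I rose. All but HMGB1P51 were named after their values were seen, and FRG1 lost its call without EV replicate 2 or WC replicate 3. In 39 pairs the log2 fold changes lay within 0.5 of each other, and the medians were 0.85 for pseudogenes and 0.85 for parents. RPL21P75 and RPL10P16 lay apart from their parents. RPL21P75 had 168, 80 and 82 reads in EV and 26, 41 and 29 in WC, where RPL21 had 420, 272 and 290 in EV and 733, 1005 and 833 in WC, with a log2 fold change of 4.43 ± 0.21 beside 1.31 ± 0.15 (SE) in RPL21. RPL10P16 had 3.46 ± 0.16 beside 1.96 ± 0.14 in RPL10. BMS1P1 fell while BMS1 had 0.26 ± 0.26. In other pairs the parent rose more, as for RPS15AP1 with 1.14 beside 2.77 in RPS15A, COX6A1P2 with -0.05 beside 2.69 in COX6A1 and RPS3AP6, named after its values were seen, with 0.63 beside 3.43 in RPS3A. These parents held far fewer reads than their copies. A library had between 76 and 133 reads on RPS15A, 15 and 26 on COX6A1 and 76 and 218 on RPS3A. The copies had between 2394 and 9809, 184 and 1841, and 1482 and 8634, so the parents' fold changes rest on a small part of the reads. The differences within pairs were not tested.

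Mitochondrial copies had fewer or similar reads to the mitochondrial genes. MTND2P28 stood between 0.77 and 1.11 times MT-ND2 and MTCO2P12 between 0.03 and 0.13 times MT-CO2, and MT-ND2 itself fell by 3.39 on the log2 scale. For some parents the counts were far below those of the copy: RPL36A had between 0 and 5 reads in a library where ENSG00000244398 had between 2004 and 7046, and EEF1G was at 0 in all 6 libraries. Coding identity and the ratio of summed reads had a Spearman's rho of 0.16 over 46 pairs, which is given as a description.

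**Figure D5:**
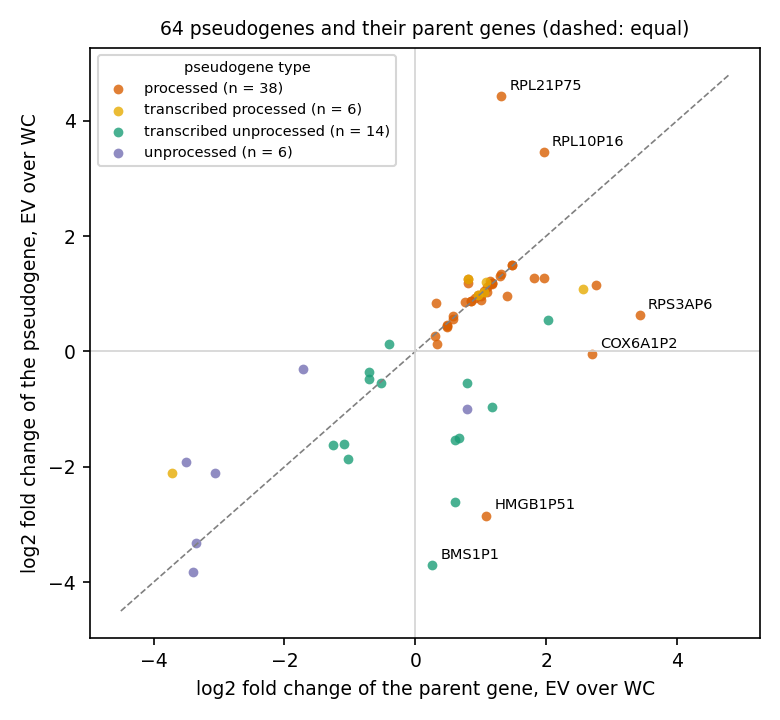
Log2 fold change of the pseudogene against that of its parent gene, EV over WC, for 64 pairs, coloured by type of pseudogene, with the dashed line at equal values. Most processed pseudogenes lie near the line, RPL21P75 and RPL10P16 above it, and BMS1P1, HMGB1P51, COX6A1P2 and RPS3AP6 below it.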

How the data were processed

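The authors mapped Nanopore cDNA reads to the human genome (hg38) with minimap2, counted genes with featureCounts in long-read mode on GENCODE v41, and built, quantified and classed isoforms with FLAIR and its predictProductivity module. Their settings for strand and for reads with several alignments are not given in the sources used here. The deposited gene table holds raw counts for 3 EV and 3 WC libraries. The isoform table gives the authors' mean of normalized counts per isoform (a signal with no value per library). Its fold changes, statistics and p-values for EV against WC, and those of a gene table, were not used. That gene table also holds counts divided by size factors (a signal deposited by the authors), used for gene types. The deposited isoform models give exons, strand and a score between 1 and 60.

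Members and lists were chosen with earlier results of these data known. Genes were tested with edgeR 4.0.16 (TMM, filterByExpr, robust quasi-likelihood F-test, Benjamini-Hochberg over all genes tested) in R 4.3.3. CPM use the TMM library sizes, and intervals and floors cover counting error only. Of 68247 lines, 46 repeated identifiers were dropped. On simulated data for this comparison (8414 genes) the fit found 70%, 96%, 100% and 100% of changes of 1, 2, 3 and 4 on the log2 scale. The changes were planted only in genes above a minimum of mean reads, with the same dispersion for every gene. These rates therefore do not describe pseudogenes with few reads. EV and WC libraries of a replicate number shared a culture and a flow cell, and their deviations from the group means correlated by 0.062, 0.024 and 0.0044. Replicate pairs differed by more than counting noise (chi-square per degree of freedom 1.28 to 6.67). Exons, ends and sequences were read from hg38 and GENCODE v44, which is later than the annotation of the files; matches to coding transcripts used blastn 2.17.0 (e-value at most 1e-10) and Biopython 1.88. A parent is the gene before P and a number in the symbol, or else the best coding match of at least 90% identity over 50% of the isoform.

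Named isoforms were the 10 highest, the 5 with most exons, the 3 longest and 3 shortest. Named genes were the 10 highest by mean CPM, the 6 largest and 6 smallest log2 fold changes called, the 5 with most isoforms, those of named isoforms, up to 3 per family, and their parents. Alternatives were DESeq2 1.42.0, other scalings and filters, a replicate block and each library left out.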

Additional observations from a re-analysis of the deposited data

How the results depend on the processing

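Scaling mattered most. With total-count scaling 43 member pseudogenes fell, 24 were WC-enriched and 35 unprocessed and transcribed unprocessed ones fell, and these named genes turned direction: EEF1A1P5 (-0.52), EEF1B2P3 (-0.098), NDUFA4P1 (-0.058), PPIAP22 (-0.38), BMS1 (-0.40), EEF1A1 (-0.32), EEF1B2 (-0.089), NDUFA4 (-0.090), PPIA (-0.35). Of these, EEF1A1P5, PPIAP22, EEF1A1 and PPIA then passed as fallen. EEF1A1P5 also turned with no filter beyond 1 read (-0.081). Leaving out each library gave 43 to 48 risen, 22 to 26 fallen, 3 to 4 EV-enriched and 11 to 13 WC-enriched pseudogenes, log2 fold changes of -0.092 to 0.22 for EEF1A1P5 and of -0.19 to 0.0022 for COX6A1P2, and a difference in the share of gene counts of 2.42 to 2.57 percentage points. With only pseudogenes that hold a multi-exon isoform the differences in the shares of gene and of pseudogene counts turned to -0.0355 and -0.277 percentage points. Among members with a level of at least 10, 77.1% had 1 exon. Of these members 70.0% lay above the median of coding isoforms restricted to the same levels, not the median of 9.84 over all coding isoforms. With at least 15 A of 20 the A-rich share was 2.46%, against 11.5% with 12. Over 69 named genes, 762 of 814 values under alternatives kept direction and call. The causes were not tested. The counts by type and family were added after seeing the data.

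With the replicate number as a block, 47 pseudogenes rose, 24 fell, 4 were EV-enriched and 13 WC-enriched. CENPBD2P, CLEC4OP, FRG1DP and PLEKHM1P1 lost the call, and no other member's call changed. The share of gene counts kept a paired difference of 2.49 percentage points (smallest exact p possible 0.25). No paired analysis was possible for isoform values because they carry no value per library.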
